A study of Homo sapiens with 4 samples.

Results

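The MYC, MAX and MXD network was followed in HGC27, a human gastric cancer cell line, when AARS1 was knocked down under lactate. Its 8 members, MYC, MAX, MXD1, MXD3, MXD4, MXI1, MNT and MGA, were picked by gene symbol from the 14431 genes listed. The rule itself used no measured value, but the members were chosen with earlier results of these data known. All 8 passed the filter on low values, as did 14199 of the listed genes. RNA-seq had been made in duplicate from wild-type control cells (n = 2 libraries) and from cells in which AARS1 had been silenced by RNA interference (siAARS1, n = 2 libraries). The control libraries are named NC in the data. Both groups were kept in DMEM without glucose, with serum and antibiotics, and both received 25 mM lactate, for 24 h according to the labels; the text of the study gives another duration, so the time is uncertain. No library without lactate was analysed here, and the labels do not say that the replicates were separate cultures, so p-values measure only the spread between these libraries, which may be technical.

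MYC is a transcription factor that binds DNA as a dimer with MAX, most often at the E-box CACGTG, and drives ribosome production, nucleotide synthesis and growth in many cancers. MAX is the shared partner. MXD1, MXD3, MXD4 and MXI1 (also called MXD2), together with the larger protein MNT, compete with MYC for MAX and repress the same kind of sites by recruiting the SIN3 and histone deacetylase corepressor. MGA is a very large protein that also pairs with MAX and serves as the scaffold of a variant Polycomb complex, PRC1.6, known for keeping germline genes silent.

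Knockdown was partial at the level of RNA. AARS1, which the table lists as AARS and which encodes the cytosolic alanyl-tRNA synthetase, had 428 and 417 CPM (reads scaled to the size of the library) in the controls and 292 and 298 CPM after knockdown, which left 69.7% of the control level. Depth was 30653210 to 33522573 reads in listed genes, and 1 read equalled 0.0293 to 0.0324 CPM. Changes were widespread. Of the genes tested, 70.7% had an adjusted p-value under 0.05 in limma, made up of 32.6% higher and 38.0% lower, and the groups did not overlap in 85.1%. Higher genes made up 46.2% of the calls, and 28.8% after the library medians were made equal (median scaling), which moved the median change over all genes (log2) from -0.05 to -0.27. Changes also followed transcript GC content, with a median log2 fold change of 0.75 in the fifth of genes with the lowest GC content and -0.30 in that with the highest. Of the markers looked for, 2 of 5 epithelial genes (KRT8 and CDH1) were listed, with a summed level of 27.0 to 27.3 CPM in the controls and 6.14 to 7.29 CPM after knockdown. None of 7 gastric lineage and 0 of 3 endothelial markers were listed, and of 3 leukocyte markers only CD68, at 0.486 to 1.10 CPM. All 4 fibroblast-type markers were listed, and their summed level was 2716 to 2813 CPM in the controls and 1911 to 1998 CPM after knockdown, most of it from COL1A1. They split, as COL1A1 (-0.57 on the log2 scale) and COL1A2 (-1.07) fell while DCN (0.11) and PDGFRA (0.23) rose, all 4 called. The part of these markers in the results below was not tested.

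Of the 8 members, 3 were called higher in siAARS1 (MGA, MXD1 and MYC), 3 were called lower (MXD4, MXD3 and MXI1) and 2 were not called (MAX and MNT), against the shares of 32.6% and 38.0% among all genes. Median scaling gave 2 higher and 6 lower, where 3306 and 8173 of the 14199 genes tested were. The groups did not overlap in 7 of the 8, against 85.1% of all genes. The median log2 fold change of the members was -0.07, close to that of all genes, and they ranged from -0.60 to 2.53. The 6 members called of 8 stand beside a share of 70.7% among all genes. In bulk RNA, fewer cells that express a gene and less of its RNA per cell cannot be told apart.

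**Figure D1:**
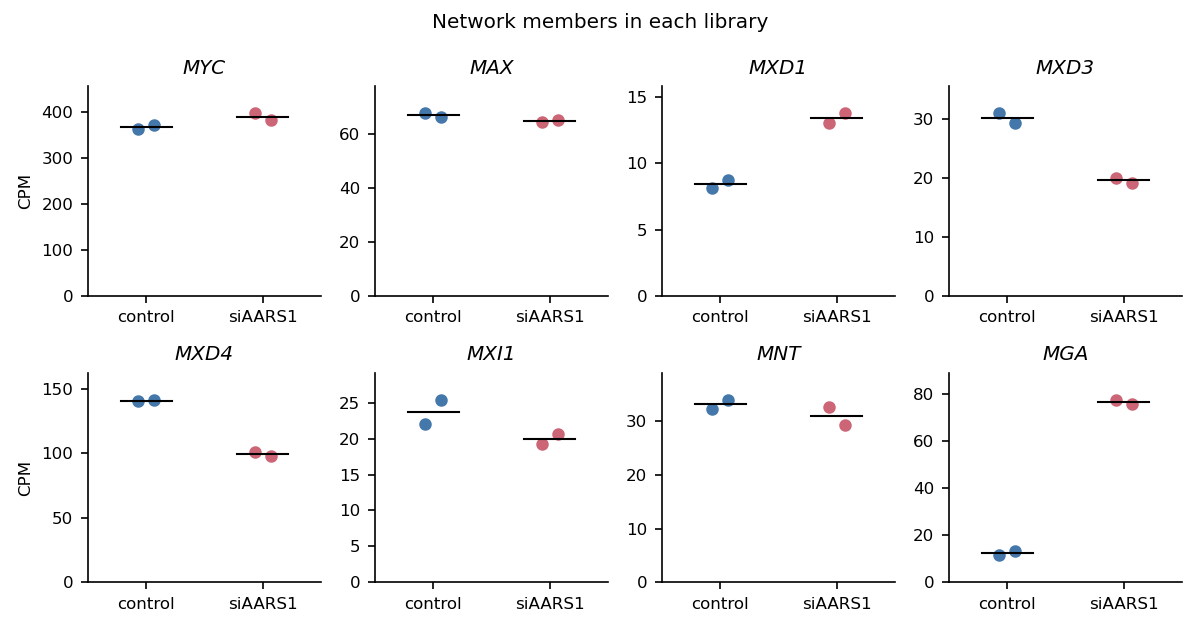
Level in CPM (vertical axes, from 0) of each member in the 2 control libraries (blue points) and the 2 siAARS1 libraries (red points), with the group mean as a black line. MGA stood at 11.7 and 13.1 CPM in the controls and 77.4 and 75.7 CPM after knockdown, while MYC, MAX and MNT changed little beside their own level.

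MYC itself was almost level. MYC (ENSG00000136997; chromosome 8, 127735434 to 127741434, plus strand, GRCh38) had 362 and 372 CPM in the controls and 397 and 381 CPM after knockdown. Both siAARS1 values lay above both controls, but the means, 367 ± 6.41 and 389 ± 10.9 CPM (SD, n = 2), differed by a factor of only 1.06. The log2 fold change was 0.083 (SE 0.0363), just past the threshold (limma adjusted p = 0.0460). Leaving out control replicate 1 (0.07, limma adjusted p = 0.252), control replicate 2 (0.10, limma adjusted p = 0.0682) or siAARS1 replicate 1 (0.05, limma adjusted p = 0.226) ended the call. Of the alternatives run, median scaling alone turned the sign, to -0.14, called lower. It moved the median of all genes to -0.27. Because it shifts all genes of a library alike, MYC necessarily lay 0.14 above that median before and after it. Quantile normalization gave 0.11 (limma adjusted p = 0.00875). On recovered reads edgeR with TMM gave 0.12 (edgeR adjusted p = 0.00730) and DESeq2 0.14 (DESeq2 adjusted p = 0.00154). Correction for transcript GC content and length gave 0.35 and correction for the coding sequence and 3' UTR gave 0.19, both called higher.

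MAX, the partner of every other member, was not called on the deposited scale. MAX (ENSG00000125952; chromosome 14, 65006174 to 65102695, minus strand) had 67.5 and 66.1 CPM in the controls and 64.3 and 65.2 CPM after knockdown. The groups did not overlap, but siAARS1 stood at 96.9% of control and the log2 fold change of -0.04 (SE 0.0484) was not called (limma adjusted p = 0.424). Here too the direction moved with the processing: it was -0.26 after median scaling and -0.14 after quantile normalization, both called, and 0.16 and 0.24 after the corrections for GC content and length and for the coding sequence and 3' UTR, again both called. The median of all genes itself lay at -0.27 after median scaling and -0.15 after quantile normalization. Relative to it MAX stood at 0.0098 and 0.011.

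The MXD proteins split. MXD1, a repressor associated with exit from the cell cycle and differentiation (ENSG00000059728; chromosome 2, 69897688 to 69942945, plus strand), had 8.12 and 8.76 CPM in the controls and 13.0 and 13.7 CPM after knockdown, counted from 277, 278, 402 and 457 reads. Both siAARS1 libraries were above both controls and the level was 1.58-fold higher. The change was 0.61 on the log2 scale (SE 0.0973; limma adjusted p = 1.07e-05). It stayed near that value after correction for coding sequence and 3' UTR (0.61) but was 0.09 and not called after correction for GC and length (limma adjusted p = 0.385). MXD1 shares 237 of its 6351 exon bases with SNRNP27 on the same strand, whose change of -0.03 was not called (limma adjusted p = 0.645).

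MXD3 and MXD4 fell. MXD3, the family member usually tied to dividing cells (ENSG00000213347; chromosome 5, 177301461 to 177312757, minus strand), had 31.0 and 29.5 CPM in the controls and 20.04 and 19.3 CPM after knockdown, 64.95% of control. The change was -0.60 on the log2 scale (SE 0.0704; limma adjusted p = 1.53e-07). MXD4, linked like MXD1 to resting and differentiated cells (ENSG00000123933; chromosome 4, 2247432 to 2262294, minus strand), had 140 and 141 CPM in the controls and 101 and 97.6 CPM after knockdown, 70.5% of control. The change was -0.50 on the log2 scale (SE 0.0420; limma adjusted p = 7.41e-10). In both genes the 2 siAARS1 libraries lay well under the 2 controls. The corrections brought the falls down to -0.23 and -0.24 for MXD3 and to -0.19 and -0.09 for MXD4 (GC content and length first), and every one of these was still called. The smallest, -0.09 for MXD4, was near the threshold (limma adjusted p = 0.0301), and 61.3% of genes had a higher change in that version. The 926 exon bases that MXD3 shares with RAB24 on the same strand, of 5154 in all, leave part of its value uncertain. RAB24 fell as well, from 47.3 to 34.7 CPM (log2 fold change -0.44, limma adjusted p = 1.09e-06), and another 1158 exon bases are shared with PRELID1 on the opposite strand, whose log2 fold change was -0.01 (limma adjusted p = 0.895).

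MXI1, which is induced by low oxygen in many cells (ENSG00000119950; chromosome 10, 110207605 to 110287365, plus strand), was lower by a smaller amount. It had 22.1 and 25.4 CPM in the controls and 19.2 and 20.6 CPM after knockdown. The groups did not overlap, but the control replicates were 3.29 CPM apart while the gap between the groups was only 1.51 CPM. The change was -0.24 on the log2 scale (SE 0.0796; limma adjusted p = 0.0105). The call ended without control replicate 2 (-0.14, limma adjusted p = 0.208), without siAARS1 replicate 1 (-0.19, limma adjusted p = 0.102) and in DESeq2 on the recovered reads (-0.20, adjusted p = 0.132). After correction for GC and length the fall was larger, at -0.50.

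MNT, the broadly expressed repressor that holds MYC targets down in resting cells (ENSG00000070444; chromosome 17, 2384060 to 2401118, minus strand), had 32.4 and 34.0 CPM in the controls and 32.6 and 29.4 CPM after knockdown. It was the only member whose groups overlapped, and its log2 fold change of -0.10 (SE 0.0667) was not called (limma adjusted p = 0.198). The value turned to 0.23 and 0.27, both called, after the 2 corrections, and was -0.32 and -0.29, called lower, after median scaling and quantile normalization. Relative to the median of all genes, MNT stood at -0.04 after median scaling and -0.14 after quantile normalization. MNT shares 1065 of its 8728 exon bases with a gene on the other strand that the table does not list, as MAX, MXI1 and MGA do over shorter stretches, and without a stated use of strand such reads cannot be told apart.

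On the deposited scale MGA changed more than any other member. MGA (ENSG00000174197; chromosome 15, 41621224 to 41773081, plus strand) had 11.7 and 13.1 CPM in the controls and 77.4 and 75.7 CPM after knockdown, counted from 400 and 416 reads against 2389 and 2518. The replicates were close and the level was 6.16-fold higher in siAARS1. The change was 2.53 on the log2 scale (SE 0.0667; limma adjusted p = 1.86e-18), exceeded by 0.754% of genes tested. MGA was the 1 member called at least 2-fold higher, as were 10.6% of all genes. Its longest annotated transcript has 14439 bases in 22 exons and 42.0% GC. Correction for GC content and length reduced the change to 1.31 and correction for the coding sequence and 3' UTR to 0.60, both called (limma adjusted p = 1.68e-12 and 4.14e-10), and the second of these is next to that of MXD1 (0.61). Genes of the same GC quintile in the longest tertile of transcripts had a median of 0.43.

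**Figure D2:**
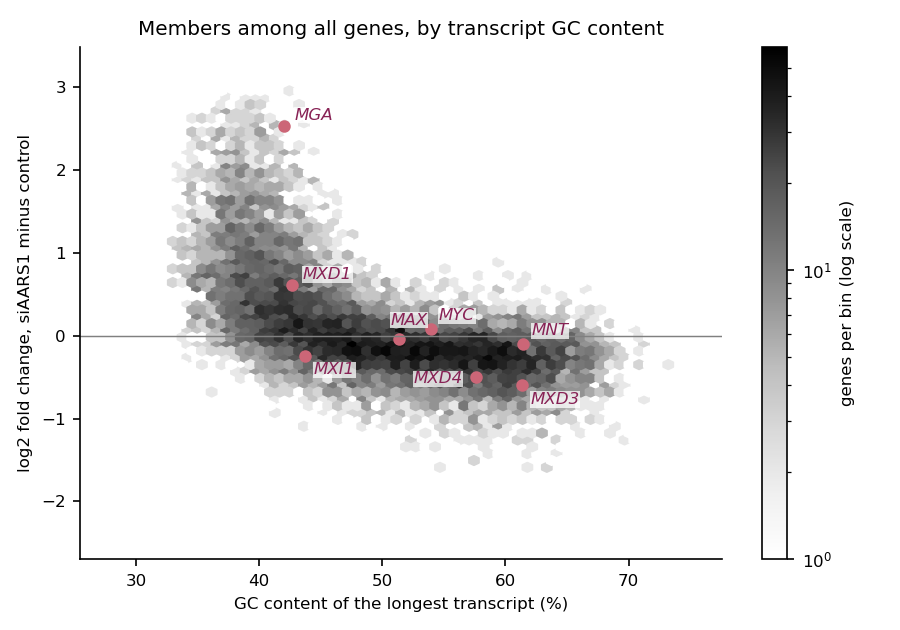
Log2 fold change, siAARS1 minus control (vertical axis), against GC content of the longest annotated transcript in percent (horizontal axis). Grey hexagons hold all genes tested that have a GC value, darker where more genes fall (log scale), and red points mark the 8 members. MGA (42.0% GC, 2.53) sat near the top of the plot, MXD1 and MXI1 of similar GC content lay on opposite sides of 0, and of the other members MYC alone lay above 0.

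**Figure D3:**
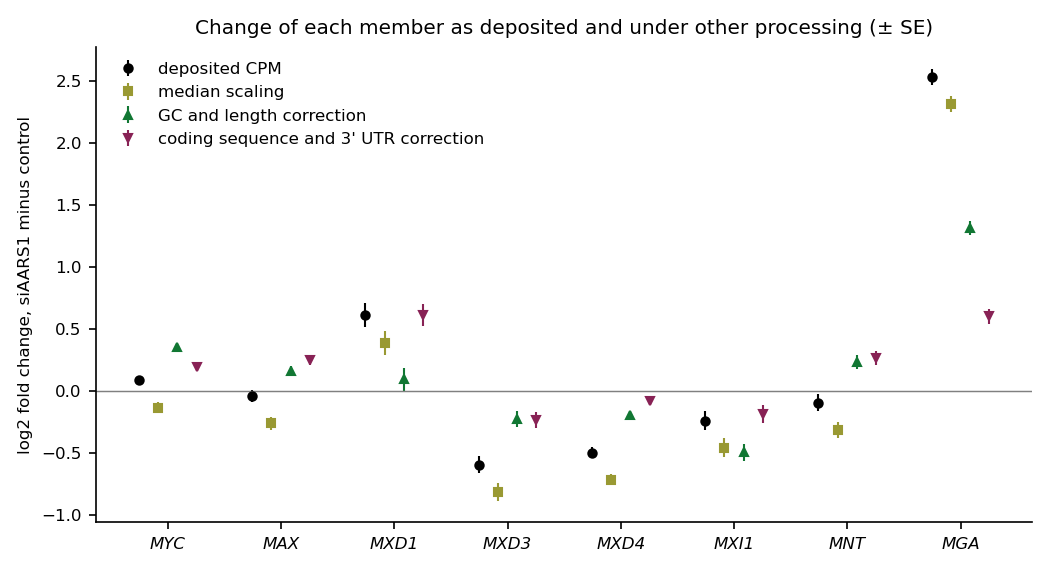
Log2 fold change of each member, siAARS1 minus control (vertical axis, ± SE), on the deposited CPM, after median scaling and after each of the 2 corrections for transcript properties. MGA, MXD3, MXD4 and MXI1 stayed on their side of 0 in these 4 versions and so did MXD1, whereas MYC, MAX and MNT crossed it.

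The regions just upstream of the members' RefSeq start sites were read, because E-boxes are the sites that the network itself binds. The table used held 12 windows of 250 bases for 7 of the members and none for MYC. The canonical E-box CACGTG, the same on both strands, was found in 2 of the 12, upstream of MXD4, which fell, and of MNT, which was not called, and it occurs in 6.34% of the 35116 windows of that length in the table. The variant CACGCG, read on both strands, was in 1 window of MGA and occurs in 9.72% of all windows. The motif TTCCCGC, a core of E2F sites, was in 0 of the 12 windows and in 5.52% of all. The windows with a match are given 5′ to 3′ on the strand of the gene (GRCh38.p14), with the motif in capitals, followed by those of MXD1 and MXD3, which changed in opposite directions and held none of the 3 motifs. A match describes the letters in the window and not a bound site.
MXD4, chr4:2262110-2262359, minus strand: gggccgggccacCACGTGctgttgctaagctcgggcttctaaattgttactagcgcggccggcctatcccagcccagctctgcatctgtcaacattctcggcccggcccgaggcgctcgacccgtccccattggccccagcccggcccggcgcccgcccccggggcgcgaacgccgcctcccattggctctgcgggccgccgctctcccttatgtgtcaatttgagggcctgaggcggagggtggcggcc
MNT, chr17:2401061-2401310, minus strand: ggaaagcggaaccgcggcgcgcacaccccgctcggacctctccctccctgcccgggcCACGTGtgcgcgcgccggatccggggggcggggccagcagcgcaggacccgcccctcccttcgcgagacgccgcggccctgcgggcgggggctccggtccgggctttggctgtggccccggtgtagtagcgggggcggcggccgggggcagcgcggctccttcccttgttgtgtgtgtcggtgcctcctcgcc
MGA, chr15:41660155-41660404, plus strand: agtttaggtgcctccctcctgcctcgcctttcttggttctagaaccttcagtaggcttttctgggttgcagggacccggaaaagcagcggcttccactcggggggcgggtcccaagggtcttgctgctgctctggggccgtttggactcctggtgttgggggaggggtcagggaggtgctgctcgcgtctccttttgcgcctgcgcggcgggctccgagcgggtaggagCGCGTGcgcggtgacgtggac
MXD1, chr2:69914859-69915108, plus strand: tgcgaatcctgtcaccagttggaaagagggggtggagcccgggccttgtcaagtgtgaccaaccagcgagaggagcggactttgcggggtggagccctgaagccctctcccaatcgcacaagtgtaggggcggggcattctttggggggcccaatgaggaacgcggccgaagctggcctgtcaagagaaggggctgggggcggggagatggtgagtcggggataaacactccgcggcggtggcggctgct
MXD3, chr5:177312753-177313002, minus strand: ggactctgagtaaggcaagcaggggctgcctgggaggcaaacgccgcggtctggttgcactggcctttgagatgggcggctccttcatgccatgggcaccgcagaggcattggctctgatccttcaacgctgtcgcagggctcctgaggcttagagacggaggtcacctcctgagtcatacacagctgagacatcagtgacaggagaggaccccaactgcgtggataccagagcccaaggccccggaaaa

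Levels of different members were compared as CPM per kb of the longest annotated transcript. In control cells MYC was highest at 155 ± 2.71 (SD, n = 2), followed by MXD4 (33.3 ± 0.172), MAX (21.2 ± 0.297) and MXD3 (13.3 ± 0.483). MXI1 (6.84 ± 0.670) and MNT (6.64 ± 0.231) came next and did not differ beyond their spread, and MXD1 (1.51 ± 0.0807) and MGA (0.860 ± 0.0676) were lowest. In siAARS1 cells MYC stood at 164 ± 4.62, MXD4 at 23.5 ± 0.566, MAX at 20.5 ± 0.182, MXD3 at 8.62 ± 0.246, MNT at 6.20 ± 0.456, MXI1 at 5.73 ± 0.280, whose libraries overlapped with those of MNT, MGA at 5.30 ± 0.0791 and MXD1 at 2.40 ± 0.0924. On these uncorrected levels MGA moved from the last place to one next to MXI1 and MNT. The ratio of MAX to MGA was 26.3 and 23.1 in control and 3.81 and 3.94 in siAARS1 libraries, with no overlap. Levels were not corrected for transcript composition, and after correction for coding sequence and 3' UTR the change was 0.60 for MGA and 0.61 for MXD1.

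The summed level of the repressors MXD1, MXD3, MXD4, MXI1 and MNT was 61.1 and 62.0 CPM per kb in control and 47.1 and 45.8 in siAARS1 libraries. MXD4 made up most of it in each library, with 54.3% and 53.9% in control and 50.7% and 50.4% in siAARS1. MXD1 made up 2.38% and 2.53% of the sum in control and 4.95% and 5.37% in siAARS1. The ratio of MYC to this sum was 2.51 and 2.53 in control and 3.56 and 3.52 in siAARS1 libraries. The ratio of MYC to MAX moved less, from 7.17 and 7.49 to 8.22 and 7.80. Neither the sum nor these ratios were corrected for transcript composition. After correction for coding sequence and 3' UTR, MXD4 changed by -0.09, MXD3 by -0.24 and MXI1 by -0.19 (log2). MNT changed by 0.27, MXD1 by 0.61 and MYC by 0.19 in that version. After correction for GC and length the changes were -0.19, -0.23, -0.50, 0.23, 0.09 and 0.35 in the same order. These are ratios of RNA and say nothing of protein or of dimers formed.

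**Figure D4:**
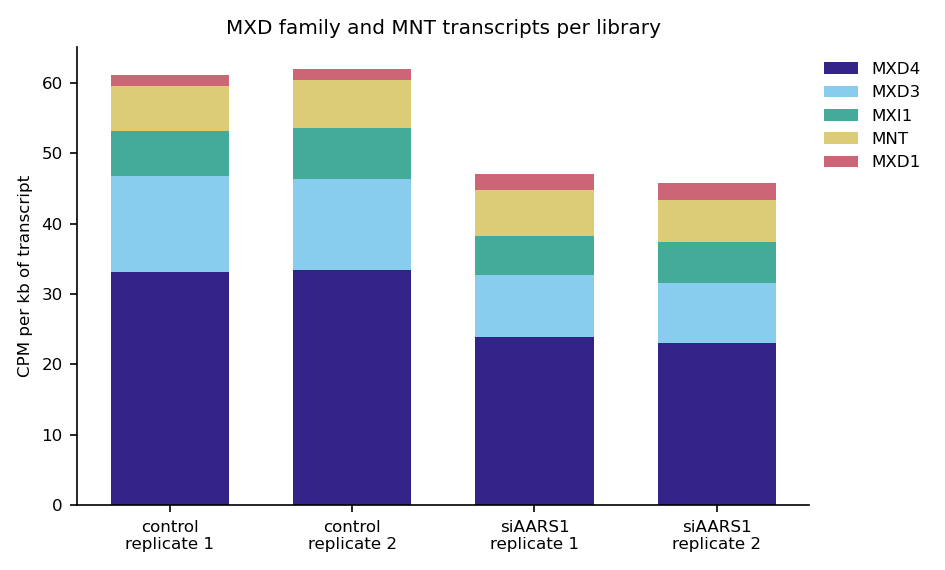
Stacked level of MXD4, MXD3, MXI1, MNT and MXD1 in CPM per kb of the longest annotated transcript (vertical axis, from 0) in each of the 4 libraries. The 2 control bars reach 61.1 and 62.0 and the 2 siAARS1 bars 47.1 and 45.8, with MXD4 and MXD3 the parts that shrank most. Levels are not corrected for transcript composition.

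Because a factor common to a library cancels in such a difference, each gene was also tested against MYC and against MAX within the same library. Trends with transcript composition do not cancel in it, so the same test was repeated after each correction, an alternative added after the data had been seen. Relative to MYC, 2 of the other members were called higher, MGA (2.45 on the log2 scale) and MXD1 (0.52), where 27.7% of all genes were. The other 5 were called lower, where 44.6% of all genes were, with MXD3 at -0.68, MXD4 at -0.58 and MXI1 at -0.32 (limma adjusted p = 5.21e-07, 6.24e-09 and 0.00301). MNT at -0.18 (limma adjusted p = 0.0270) and MAX at -0.13 (limma adjusted p = 0.0493) were near the threshold. MAX lost the call without control replicate 1, control replicate 2 or siAARS1 replicate 1 (limma adjusted p = 0.314, 0.0892 and 0.184), MNT without control replicate 1, control replicate 2 or siAARS1 replicate 2 (0.0977, 0.162 and 0.101), and MXI1 without control replicate 2 (0.0774). MAX also lost it with a pseudocount of 0.1 (0.0531) and with no filter (0.0508). After correction for GC and length MXD1 turned to -0.26 relative to MYC (limma adjusted p = 0.0140), MGA was at 0.96 and MNT was no longer called (-0.12). After correction for coding sequence and 3' UTR MGA was at 0.41 and MXD1 at 0.43, and MAX (0.057) and MNT (0.079) turned above MYC, not called.

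Relative to MAX, MGA (2.58), MXD1 (0.65) and MYC (0.13) were called higher, as were 35.0% of all genes, and MXD3 (-0.55), MXD4 (-0.46) and MXI1 (-0.20) lower, as were 32.8%. MNT changed by -0.05 against MAX (SE 0.0720) and was not called (limma adjusted p = 0.525). The change of MYC against MAX is that of MAX against MYC with the sign turned, so it is not a second result. Its SE was 0.0436 here and 0.0557 there, because limma estimates the spread over all genes of each test. MYC against MAX (limma adjusted p = 0.0110) lost the call without control replicate 1 (0.132) or siAARS1 replicate 1 (0.128), and MXI1 against MAX (limma adjusted p = 0.0369) without control replicate 2 (0.465) or siAARS1 replicate 1 (0.169). After correction for GC and length MGA was at 1.16 relative to MAX and MXD1 at -0.07, not called (limma adjusted p = 0.563), and after that for coding sequence and 3' UTR MGA was at 0.36 and MXD1 at 0.37. MGA stayed higher, and MXD3, MXD4 and MXI1 lower, relative to both MYC and MAX after either correction, each called, whereas the place of MXD1 depended on the correction.

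The genes whose pattern over the 4 libraries lay nearest to that of MYC, by the distance of log2(CPM + 1) deviations among 11284 genes with at least 5 CPM on average, were RNF141, LIMD1 and WASF3. Their log2 fold changes were 0.08, 0.08 and 0.07, and none was called on its own. Nearest to MGA were TOPBP1 and BLM, both proteins of DNA repair and replication, and N4BP2. TOPBP1 had 12.9 and 13.7 CPM in the controls and 83.3 and 80.3 CPM after knockdown, and BLM rose from 4.92 to 32.6 CPM and N4BP2 from 0.993 to 10.7 CPM. BLM and N4BP2, whose control means lay under 5 CPM, reached the 5 CPM average only through their siAARS1 libraries. These genes were picked for sharing the change of MGA, and their values were not corrected for transcript composition.

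The other genes around the network were taken as 5 lists, in which WDR5, HDAC1 and HDAC2 stand more than once. Of 5 genes in the list of MYC paralogs and the MLX arm, a parallel set of factors that sense glucose metabolites, 1 was called higher and 3 lower (32.6% and 38.0% of all genes were), with a median log2 fold change of -0.33. MLXIP, which pairs with MLX, rose from 52.5 ± 0.783 to 59.8 ± 3.78 CPM (0.18, limma adjusted p = 0.00512) and MLX fell from 96.4 ± 0.936 to 88.9 ± 1.68 CPM (-0.11, limma adjusted p = 0.0255). The direction of both moved with the processing, MLX to 0.11 and 0.21 after the corrections (GC and length first) and MLXIP to -0.04 after median scaling. MYCL, a low gene, had 4.37 and 5.39 CPM in the controls and 2.07 and 1.38 CPM after knockdown (-1.11, limma adjusted p = 1.40e-06). MYCL stayed lower, at -1.33 after median scaling and at -0.90 and -0.83 after the corrections. Without control replicate 1 only 1 gene was called lower, and without siAARS1 replicate 1 none was called higher.

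Of 31 regulators and cofactors of MYC protein, 16 were called higher and 7 lower (32.6% and 38.0% of all genes were), with a median of 0.19 against -0.05 for all genes. CIP2A (listed as KIAA1524), an inhibitor of the phosphatase that destabilises MYC, had 7.51 and 9.61 CPM in the controls and 48.8 and 52.5 CPM after knockdown, a 5.92-fold rise. BPTF, a chromatin remodelling subunit that MYC uses, rose from 23.8 ± 0.588 to 101 ± 4.38 CPM (2.05, limma adjusted p = 2.38e-18). BIN1, which binds MYC and restrains it, fell from 66.9 ± 0.572 to 42.9 ± 1.02 CPM (-0.63, limma adjusted p = 5.19e-10), and RUVBL2, a helicase of MYC cofactor complexes, from 259 ± 1.09 to 207 ± 6.17 CPM (-0.33). The corrections (GC and length first) gave 1.40 and 0.78 for CIP2A, 1.18 and 0.32 for BPTF, -0.30 and -0.28 for BIN1, and 0.04 and 0.015 for RUVBL2, which thus turned. Median scaling gave 10 higher and 15 lower in this list, where 3306 and 8173 of 14199 genes tested were. The genes named here were picked by the size of their change. The list mixes factors that favour MYC with factors that restrain it, so its counts give no direction for MYC.

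Of 20 genes of the SIN3 corepressor, which the MXD proteins and MNT recruit, 10 were called higher and 3 lower (32.6% and 38.0% of all genes were), with a median of 0.13. The 65% called in either direction compares with 70.7% of all genes. The DNA-binding subunits ARID4A and ARID4B rose 5.19-fold and 5.33-fold, from low control levels of 3.01 ± 0.733 and 5.46 ± 0.793 CPM to 15.6 ± 0.465 and 29.1 ± 0.272 CPM. ARID4A reached the 5 CPM asked of named genes only through its siAARS1 libraries. SAP30L fell from 23.2 ± 1.59 to 18.7 ± 0.0453 CPM and ING1 from 20.4 ± 0.0530 to 17.8 ± 0.418 CPM. In the same order the corrections took ARID4A from 2.06 to 0.90 and -0.03 and ARID4B from 2.22 to 1.149 and 0.12, and SAP30L from -0.30 to -0.30 and -0.14 and ING1 from -0.19 to -0.16 and -0.09. The list had 8 higher and 9 lower genes after median scaling, where 3306 and 8173 of 14199 genes tested were.

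Of 13 partners of MGA in PRC1.6, 7 were called higher and 1 lower (32.6% and 38.0% of all genes were), with a median of 0.16. The 61.5% called in either direction compares with 70.7% of all genes. CBX3, a heterochromatin protein, had 216 and 209 CPM in the controls and 400 and 414 CPM after knockdown (0.93, limma adjusted p = 1.73e-15). PCGF6, the subunit that defines this complex, rose from 7.996 ± 0.431 to 13.1 ± 0.0438 CPM (0.65, limma adjusted p = 4.69e-06), and RING1 fell from 59.2 ± 1.04 to 50.1 ± 1.84 CPM (-0.24, limma adjusted p = 0.000422), which turned to 0.13 after either correction. None of the 13 was called at least 2-fold higher, where 10.6% of all genes were. CBX3 and PCGF6 stayed higher after both corrections, at 0.50 and 0.49 for CBX3 and at 0.39 and 0.56 for PCGF6. TFDP1 did too (0.17 and 0.17). Other genes called higher turned, RNF2 from 0.27 to -0.56 and -0.51 and HDAC2 from 0.63 to -0.81 and -0.77. YAF2 turned from 0.29 to -0.59 and -0.19, and RYBP from 0.51 to -0.47 after correction for GC and length but not after the other (0.40). After median scaling the list had 4 higher and 6 lower genes, where 3306 and 8173 of 14199 genes tested were.

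Of 47 genes that MYC is known to activate, most of them in ribosome production, nucleotide synthesis and metabolism, 34 were called higher (32.6% of all genes were) and 4 lower (38.0% of all genes were). The median was 0.17, which lay 0.23 above that of all genes. HSPD1, the mitochondrial chaperonin, had 574 and 589 CPM in the controls and 1406 and 1424 CPM after knockdown (1.28, limma adjusted p = 2.02e-18), and PPAT, the first enzyme of purine synthesis, had 38.9 and 40.9 CPM in the controls and 98.0 and 102 CPM after knockdown (1.303, limma adjusted p = 1.17e-15). SHMT2, a mitochondrial enzyme of folate metabolism, fell from 662 ± 2.16 to 540 ± 12.1 CPM (-0.29, limma adjusted p = 1.44e-07) and CCND2, a cyclin, from 258 ± 1.71 to 215 ± 5.65 CPM (-0.26, limma adjusted p = 3.00e-06). The corrections (GC and length first) took HSPD1 to 1.16 and 0.58 and PPAT to 0.21 and 0.33, turned SHMT2 to 0.0097 and 0.033, and gave -0.48 and -0.07 for CCND2. The number of calls did not fall, as 39 of 46 genes with the annotation were called higher and 3 lower after that for GC content and length, and 40 and 1 after that for the coding sequence and 3' UTR. Median scaling left 15 higher and 14 lower, where 3306 and 8173 of 14199 genes tested were. Median scaling shifts all genes of a library alike, so the 0.23 between the list and the median of all genes could not change with it.

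**Figure D5:**
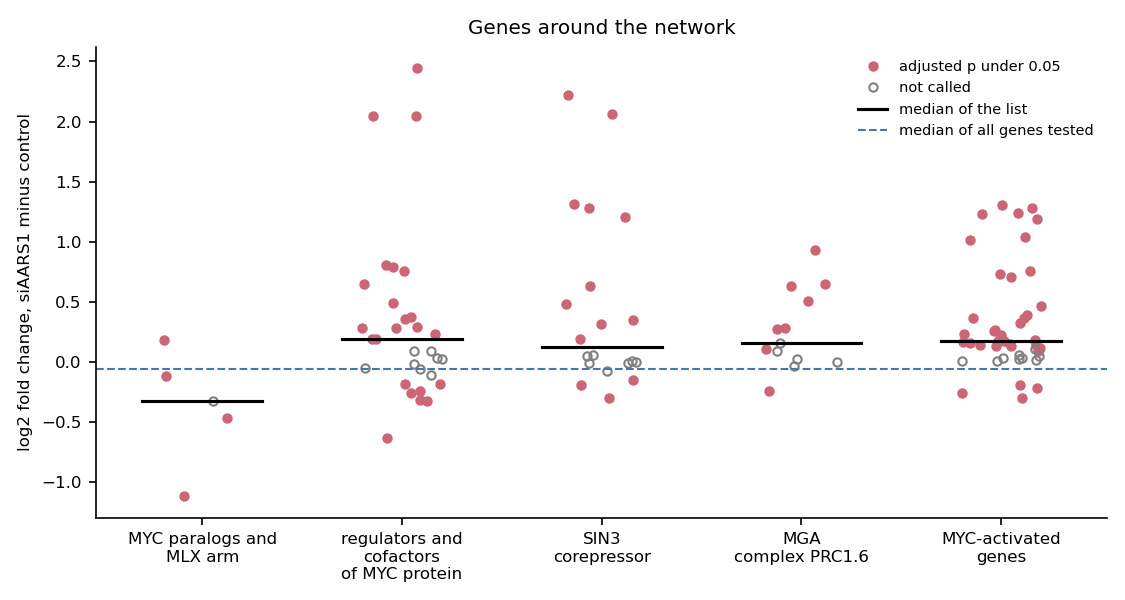
Log2 fold change, siAARS1 minus control (vertical axis), of each gene of the 5 lists (points; filled red where the limma adjusted p-value was under 0.05, open grey otherwise, spread sideways for legibility), with the median of each list as a black line and the median of all genes tested as a dashed blue line. The medians of 4 lists lie at 0.13 to 0.19, above the dashed line at -0.05, and that of the MYC paralogs and MLX arm at -0.33 lies under it.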

How the data were processed

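RNA-seq of 4 libraries was analysed, 2 control and 2 siAARS1, grouped by sample title. The authors deposited 1 table of CPM values (reads scaled to library size), with no correction for gene length or GC content. The submitters' processing notes name RSEM 1.3.3 and hg38 with no role, and neither the use of strand nor the annotation is given in the sources used here. In each library 100% of the values were whole multiples of 1 read (tolerance 0.0011 CPM). The sizes behind the CPM exceeded the recovered sums by 0.749% to 1.89%. Intervals and floors at this depth (3 reads, 0.0880 to 0.0971 CPM) cover counting error only. Replicates differed beyond sampling noise (chi-square per gene 3.63 and 3.62), so all 4 libraries were kept.

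limma 3.58.1 (R 4.3.3; eBayes with a trend, 2-sided) was run on log2(CPM + 1) on 14199 genes (mean in either group 1 CPM or more), siAARS1 minus control, with Benjamini-Hochberg adjustment over all of them and a threshold of 0.05. Fold changes on that scale understate changes of low genes. The same test was run on each gene minus MYC, or minus MAX, in the same library. The corrections took out the whole smooth trend of each library's deviation (mgcv 1.9.3) on GENCODE 29 transcript properties, known for 97.3% of genes for GC and length and 85.2% for coding sequence and 3' UTR, and with it any true change that follows them. The form of these corrections was settled after first values had been seen. Other alternatives were a pseudocount of 0.1, no filter, median scaling, quantile normalization, a replicate block, leaving out each library, a threshold of 0.01, and edgeR 4.0.16 with TMM and DESeq2 1.42.0 on the recovered reads. Scripts were tested on simulated data.

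The members and lists were chosen with earlier results of these data known. Named genes were AARS1, the members, up to 2 called rises and 2 called falls per list (at least 5 CPM in the higher group), and the 3 nearest patterns to MYC and to MGA, the member with the largest change. MYCL, which lay under 5 CPM, was named in addition after the data had been seen, and so were TFDP1, RNF2, HDAC2, YAF2 and RYBP. Coordinates are those of GENCODE 29 (GRCh38), which the authors need not have used.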

Additional observations from a re-analysis of the deposited data

How the results depend on the processing

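The limits here are the 2 libraries per group, the choice of scaling and the correction for transcript properties. MGA, MXD3 and MXD4 kept their direction and call under every alternative run, and MXD1 under all but correction for GC and length, with or without the replicate block (0.091 in both). Leaving out 1 library gave 8908 to 9283 genes called, 2 to 3 members higher and 2 to 3 lower, with ranges of 0.055 to 0.11 for MYC and -0.34 to -0.14 for MXI1, and 2 to 4 members lower relative to MYC. In the MYC paralogs and MLX arm it left 0 to 1 higher and 1 to 2 lower, and MNT relative to MAX turned to 0.028 without siAARS1 replicate 2.

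Median scaling gave 3306 genes and 2 members higher, and 8173 genes and 6 members lower. MYC turned to -0.14 under median scaling, and MAX moved to -0.26 and MNT to -0.32. Higher and lower calls under it were 0 and 4 in the MYC paralogs and MLX arm, 10 and 15 in the regulators, 8 and 9 in SIN3, 4 and 6 in PRC1.6 and 15 and 14 in the MYC-activated genes. Quantile normalization gave 5 members lower, with MAX at -0.14 and MNT at -0.29, 0 higher in the MLX arm and 2 lower in PRC1.6. Correction for GC and length turned MAX to 0.16 and MNT to 0.23, both with and without the replicate block, and gave 2 higher and 1 lower in the MLX arm and 4, 8 and 5 lower in the regulators, SIN3 and PRC1.6. The coding sequence and 3' UTR correction gave 5 members higher, MAX at 0.24, MNT at 0.27, 2 higher and 1 lower in the MLX arm, 4 lower in PRC1.6 and 1 lower in the MYC-activated genes. Relative to MYC, correction for GC and length left 1 member higher and turned MXD1 to -0.26, and that for coding sequence and 3' UTR left 3 members lower and turned MAX to 0.057 and MNT to 0.079. Relative to MAX, the first turned MXD1 to -0.066 and MNT to 0.076, and the second turned MYC to -0.057 and MNT to 0.022. The genes of that second correction, tested without it (like the corrected relative tests, an alternative chosen after seeing the data), changed no member's call. A threshold of 0.01 ended the calls of MYC (0.083) and MXI1 (-0.24) and left 3 members lower relative to MYC and 1 gene lower in the MLX arm. DESeq2 turned MAX to 0.0075, put MXI1 at -0.20, not called, and gave 1 lower gene each in the MLX arm and SIN3. The causes were not tested.

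The replicate block gave 10389 genes called against 10032, and ended 1 call among the members, that of MAX relative to MYC (-0.13, limma adjusted p = 0.0605). Both groups carry the numbers 1 and 2, but no label makes these pairs, and deviations of same-numbered libraries correlated across genes with r = 0.118 over 2 pairs.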
